A study of Mus musculus with 92 samples.

Results

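The genes for the subunits of the proteasome and for its regulators were described in single bone marrow cells of mice. Members were the rows whose symbol starts with Psma, Psmb, Psmc, Psmd, Psme, Psmf or Psmg followed by a digit, and that were detected, with a value above 0, in 25% or more of a sort gate's cells. The symbol part matched 50 of 23956 rows, and 49 of these passed the detection part, among 7803 rows that passed it in all. Psma8, a testis form of an alpha subunit, did not pass, with a value above 0 in 3 of 47 CD11b+ GMP-P cells and 6 of 45 GMP cells. Psmc3ip passed and is kept in the counts, but it is a recombination factor named for its binding to a proteasome ATPase and is no subunit. It was the 1 member that passed in GMP cells alone, at 24 of 45 cells, against 10 of 47 CD11b+ GMP-P cells.

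All 92 cells came from C57BL/6 mice of the genotype Gfi1-R412X/R412X, a premature stop in both copies of the gene for GFI1, a zinc finger repressor needed for granulocytes to form. Marrow from crushed hindlimbs was enriched for CD117 on magnetic beads and sorted into CD11b+ GMP-P cells (47) and GMP cells (45), GMP being the usual short form of granulocyte-monocyte progenitor. Single cells were captured on the Fluidigm C1 system and their cDNA was made with the SMARTer kit. Cells without the mutation are not analysed here, so nothing in these values speaks of its effect. The submitters' annotation gives each cell 1 of 9 state names, which are used as names only. CD11b+ GMP-P cells were 20 Gran-2, 15 Myelo-2, 4 Gran-1, 3 Myelo-1, 3 Myelo-4, 1 Mono and 1 Multi-Lin. GMP cells were 24 Mono, 6 Gran-1, 5 MP, 5 Multi-Lin, 3 cMoP and 2 Gran-2.

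Each gate is 1 set of cells with its own date code and no animal named, so cells are not replicates and no p-value was computed. What comes with the gate, the animal, the capture or the date cannot be told apart. No cell of a gate shares its number or its values with a cell of the other (0 identical pairs). The SD beside a mean is the spread between cells. The values are TPM, the transcripts of a gene scaled by its length to a total of 1000000 per cell, which keep no read depth. A value of 0 means only that a gene was not detected in a cell. Genes detected per cell stand in for it, with a lowest, median and highest of 1993, 4143 and 5743 in CD11b+ GMP-P cells, against 2775, 5611 and 6612 in GMP cells. Itgam, which encodes CD11b, was above 0 in 38 of 47 CD11b+ GMP-P cells and 17 of 45 GMP cells. The 7 late granule genes checked summed to a median of 193701 TPM in CD11b+ GMP-P cells and 156 TPM in GMP cells, and the 5 monocyte genes to 0.58 TPM in CD11b+ GMP-P cells and 511 TPM in GMP cells. Markers of megakaryocytes and B cells, 3 of each, summed to at most 4.46 and 0.10 TPM in any cell. Of the 3 genes of the T and NK cell list, Nkg7 had a median of 2721 TPM in CD11b+ GMP-P cells and 3409 TPM in GMP cells. Lck was above 0 in 13 of 47 CD11b+ GMP-P cells (up to 69.6 TPM) and 8 of 45 GMP cells (up to 86.4 TPM), and Cd3e was at 0 in every cell. The 3 basophil and mast cell genes reached 703 TPM in CD11b+ GMP-P cells and 5725 TPM in GMP cells, and the 4 erythroid genes 0.39 and 1044 TPM in these gates, with medians of 0 throughout.

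The proteasome degrades proteins marked with ubiquitin. Its 20S core is a barrel of alpha rings outside and beta rings inside, with the cutting sites on the beta subunits Psmb5, Psmb6 and Psmb7, and the 19S regulator at its end binds ubiquitin chains, removes them and unfolds the substrate with a ring of ATPases. Haematopoietic cells also make the immunoproteasome, in which Psmb8, Psmb9 and Psmb10 take the places of Psmb5, Psmb6 and Psmb7 and favour peptides for presentation on MHC class I. Interferon gamma is known to raise these genes and the PA28 activator genes Psme1 and Psme2, and the factor NRF1 to raise the core and 19S genes when proteasome capacity is short.

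The promoters of the immunoproteasome genes and of the constitutive genes Psmb5 and Psmb6 are shown because the results turn on how these genes differ between cells. They are the 250 bases before the annotated start, 5′ to 3′ on the gene's strand, from RefSeq, build GRCm38.p6 (the submitters' values were made on mm9, and no coordinates are carried between the builds). Capitals mark a match to 1 of 4 motifs, searched on both strands: CCAAT, the antioxidant response element TGACNNNGC, the interferon-stimulated response element (GAAA, NN and GAAA in a row) and the interferon gamma activated site TTCNNNGAA.
Psmb8, chr17:34197945-34198194, plus strand: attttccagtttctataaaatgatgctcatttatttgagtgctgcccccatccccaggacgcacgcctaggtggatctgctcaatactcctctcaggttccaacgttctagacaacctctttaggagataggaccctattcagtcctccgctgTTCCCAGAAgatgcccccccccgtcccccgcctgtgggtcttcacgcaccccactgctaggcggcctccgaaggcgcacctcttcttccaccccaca
Psmb9, chr17:34187331-34187580, minus strand: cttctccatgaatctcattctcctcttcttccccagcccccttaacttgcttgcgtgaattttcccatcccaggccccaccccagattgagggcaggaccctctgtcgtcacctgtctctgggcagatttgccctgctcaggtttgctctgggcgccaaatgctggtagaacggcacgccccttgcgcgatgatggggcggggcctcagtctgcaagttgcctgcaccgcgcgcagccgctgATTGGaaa
Psmb10, chr8:105938393-105938642, minus strand: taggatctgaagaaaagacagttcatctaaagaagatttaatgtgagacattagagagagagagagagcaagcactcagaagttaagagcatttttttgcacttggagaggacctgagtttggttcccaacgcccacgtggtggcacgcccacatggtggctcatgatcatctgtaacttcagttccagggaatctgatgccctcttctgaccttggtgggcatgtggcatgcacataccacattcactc
Psmb5, chr14:54617996-54618245, minus strand: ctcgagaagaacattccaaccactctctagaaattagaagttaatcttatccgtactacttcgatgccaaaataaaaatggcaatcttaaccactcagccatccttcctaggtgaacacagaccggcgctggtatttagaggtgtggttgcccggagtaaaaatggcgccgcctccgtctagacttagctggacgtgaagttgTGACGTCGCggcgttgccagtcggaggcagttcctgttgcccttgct
Psmb6, chr11:70525107-70525356, plus strand: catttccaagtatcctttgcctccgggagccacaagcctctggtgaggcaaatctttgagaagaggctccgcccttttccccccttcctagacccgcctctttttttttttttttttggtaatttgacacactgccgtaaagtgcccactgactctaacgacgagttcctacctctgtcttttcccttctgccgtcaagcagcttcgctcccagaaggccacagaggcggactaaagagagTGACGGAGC

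The Psmb8 window holds an interferon gamma activated site motif at 97 bases before the start, and the Psmb9 window a CCAAT box, read on the opposite strand, at 8 bases. Psmb5 and Psmb6 each hold an antioxidant response element motif, at 47 and 9 bases, and the Psmb10 window holds none of the 4. Windows were found for 42 of the 50 members, and none for Psmb7, the constitutive counterpart of Psmb10. Of these 42, 15 held CCAAT (35.7%, against 37.5% of 27025 genes with a window), among them 5 of 7 alpha subunit genes. The antioxidant response element motif was in 5 (11.9%, against 11.5%), the interferon-stimulated response element motif in 3 (7.14%, against 3.46%) and the interferon gamma activated site motif in 2 (4.76%, against 8.13%). For the 42 genes as a set, the shares for CCAAT and for the antioxidant response element motif were close to those of all genes. A match is a run of letters, and these data hold no measure of binding.

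Nearly every proteasome gene had a lower mean level in CD11b+ GMP-P cells than in GMP cells. On the scale of mean log2(TPM + 1), 46 of 49 members were lower by 2-fold or more (93.9%, against 39% of the 7803 genes compared), and 0 were higher by as much (against 2.72%). The median difference was -2.20 for the members and -0.74 for all genes. Among genes detected in 50% or more of either gate's cells, 53.7% were lower by that size. Members within 2-fold were Psmd10 (-0.61), Psmd9 (-0.86) and Psmb11 (0.02). Psmb11, the catalytic subunit of the thymus proteasome, was above 0 in 18 of 47 CD11b+ GMP-P cells and 17 of 45 GMP cells but reached only 1.73 TPM in CD11b+ GMP-P cells and 0.76 TPM in GMP cells.

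**Figure D1:**
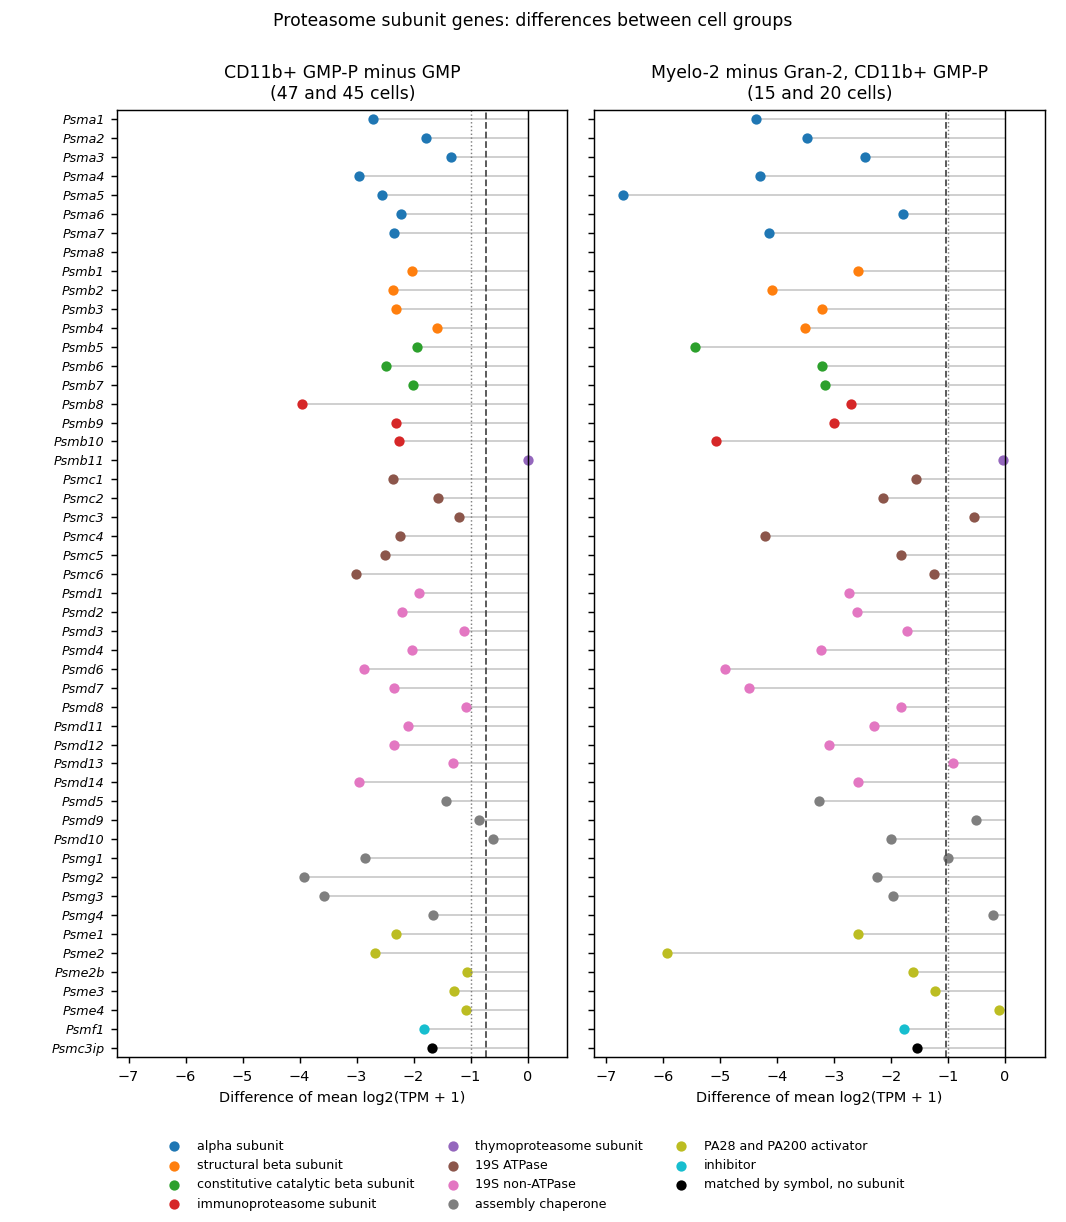
Difference of mean log2(TPM + 1) for each member, coloured by role, for CD11b+ GMP-P minus GMP (left) and Myelo-2 minus Gran-2 within CD11b+ GMP-P (right). The solid line is 0, the dotted line a 2-fold lower mean, and the dashed line the median of all genes compared (-0.74 left, -1.04 right); 46 of 49 members lie past the dotted line on the left and 42 of 49 on the right.

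In the 20S core, all 7 alpha subunit genes that passed were lower by 2-fold or more in CD11b+ GMP-P cells, with a median of -2.35. The alpha subunits form the outer rings and the gate of the barrel. Psma4 differed most among them, with 0, 119 and 1360 TPM (lowest, median, highest) in CD11b+ GMP-P cells, against 11.7, 470 and 2640 TPM in GMP cells (difference -2.95). Psma3 differed least, with 0, 261 and 1041 TPM in CD11b+ GMP-P cells, against 0, 430 and 1580 TPM in GMP cells (-1.34). Psma4 was detected in every GMP cell and in 35 of 47 CD11b+ GMP-P cells, and the gates overlapped for both genes. Psma7 was the most abundant alpha gene by median, at 520 TPM in CD11b+ GMP-P cells and 996 TPM in GMP cells. Its values reached 2468 TPM in CD11b+ GMP-P cells and 2911 TPM in GMP cells, so the upper ends of the gates nearly met. The 4 structural beta genes, which complete the inner rings without cutting, lay between -2.37 and -1.58. With only Gran-1 and Gran-2 cells, their median was 0.11. At the ends of the range were Psmb2, with medians of 239 TPM in CD11b+ GMP-P cells and 645 TPM in GMP cells, and Psmb4, with medians of 28.9 TPM in CD11b+ GMP-P cells and 112 TPM in GMP cells.

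The constitutive catalytic genes were lower by similar amounts over all cells, with a median of -2.01. Their median was 0.52 in cells matched on genes detected and 0.53 with only Gran-1 and Gran-2 cells, so the direction turned there. Psmb5, the chymotrypsin-like subunit, had a lowest, median and highest of 0, 161 and 1843 TPM in CD11b+ GMP-P cells, against 0, 337 and 2105 TPM in GMP cells, and averaged 5.47 ± 3.96 log2 units in CD11b+ GMP-P cells and 7.40 ± 2.79 in GMP cells (difference -1.93). Psmb6, the caspase-like subunit, had 0, 152 and 1121 TPM in CD11b+ GMP-P cells, against 1.11, 627 and 2569 TPM in GMP cells (difference -2.48). Psmb7, the trypsin-like subunit, had 0, 24.6 and 539 TPM in CD11b+ GMP-P cells, against 0, 177 and 1134 TPM in GMP cells (difference -2.01). Every one of the 3 was at 0 in some CD11b+ GMP-P cells, Psmb6 in none of the GMP cells, and the ranges of the gates overlapped for all 3. Of 47 CD11b+ GMP-P cells, Psmb5 was detected in 34, Psmb6 in 40 and Psmb7 in 32, against 43, 45 and 40 of 45 GMP cells.

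Psmb8, the immunoproteasome counterpart of Psmb5, had the largest difference of any member. It had a lowest, median and highest of 0, 76.9 and 1453 TPM in CD11b+ GMP-P cells, against 23.7, 630 and 2446 TPM in GMP cells. It averaged 5.11 ± 3.56 log2 units in CD11b+ GMP-P cells and 9.08 ± 1.22 in GMP cells, a difference of -3.96. Only 0.628% of the genes compared had a more negative difference. Psmb8 was above 0 in 36 of 47 CD11b+ GMP-P cells (76.6%, exact 95% interval 62 to 87.7, counting error only) and in 45 of 45 GMP cells (100%, 92.1 to 100). It was detected in every GMP cell, while the highest CD11b+ GMP-P cells lay well inside the GMP range. Psmb9 had 0, 14.5 and 968 TPM in CD11b+ GMP-P cells, against 0, 167 and 957 TPM in GMP cells (difference -2.31). Psmb10 had 0, 0.45 and 1057 TPM in CD11b+ GMP-P cells, against 0, 88.6 and 551 TPM in GMP cells (difference -2.26). For Psmb9 and Psmb10 the highest cell of all was a CD11b+ GMP-P cell, although their medians were lower in that gate.

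In the 19S regulator, all 6 ATPase genes and all 11 non-ATPase genes were lower by 2-fold or more in CD11b+ GMP-P cells, with medians of -2.29 and -2.10. In the ATPase ring, which unfolds substrates, Psmc6 differed most, with 0, 9.21 and 421 TPM (lowest, median, highest) in CD11b+ GMP-P cells, against 0, 166 and 1048 TPM in GMP cells (-3.01). Psmc3 differed least, with 0, 107 and 928 TPM in CD11b+ GMP-P cells, against 0, 187 and 1099 TPM in GMP cells (-1.20), and was above 0 in 39 of 47 CD11b+ GMP-P cells and 40 of 45 GMP cells. The gates thus lay far closer for Psmc3 than for Psmc6, although both encode parts of 1 ring. Psmd14, the deubiquitinase that cuts chains off the substrate, differed most among the non-ATPase genes (-2.96), with medians of 34.7 TPM in CD11b+ GMP-P cells and 325 TPM in GMP cells. Psmd8, a lid subunit, differed least (-1.07), with medians of 42.9 TPM in CD11b+ GMP-P cells and 90.2 TPM in GMP cells, and its highest cell was a CD11b+ GMP-P cell at 1337 TPM.

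The assembly chaperones help build the core and the base of the 19S regulator and leave the finished particle. Of these 7 genes, 5 were lower by 2-fold or more in CD11b+ GMP-P cells, and Psmd9 and Psmd10 were not. Psmg2, which pairs with Psmg1 to build the alpha ring, had 0, 0 and 447 TPM (lowest, median, highest) in CD11b+ GMP-P cells, against 0, 48.1 and 576 TPM in GMP cells, a difference of -3.93. Its values were above 0 in 15 of 47 CD11b+ GMP-P cells and 40 of 45 GMP cells, so it was not detected in most cells of the CD11b+ gate. Psmg3 (-3.57) and Psmg1 (-2.86) followed, each above 0 in 13 of 47 CD11b+ GMP-P cells, against 38 and 34 of 45 GMP cells. For Psmd10, a chaperone of the 19S base, the shares were nearly equal, at 23 of 47 CD11b+ GMP-P cells and 25 of 45 GMP cells.

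Among the activators, the PA28 pair differed most. Psme1 had 0, 136 and 2585 TPM in CD11b+ GMP-P cells, against 0, 495 and 1750 TPM in GMP cells (difference -2.31). Psme2 had 0, 210 and 1305 TPM in CD11b+ GMP-P cells, against 0, 503 and 1551 TPM in GMP cells (difference -2.68). The ranges overlapped for both genes, and the highest Psme1 value was in a CD11b+ GMP-P cell. Psme3, the nuclear PA28 gamma, differed by -1.29 and Psme4, the PA200 cap, by -1.09, and neither had a median above 3.28 TPM in a gate. Psmf1, an inhibitor of the core in the test tube, had medians of 0 TPM in CD11b+ GMP-P cells and 1.27 TPM in GMP cells and a difference of -1.81. Psme2b (-1.06), a near-identical intronless copy of Psme2, may share reads with it, so its value is uncertain.

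**Figure D2:**
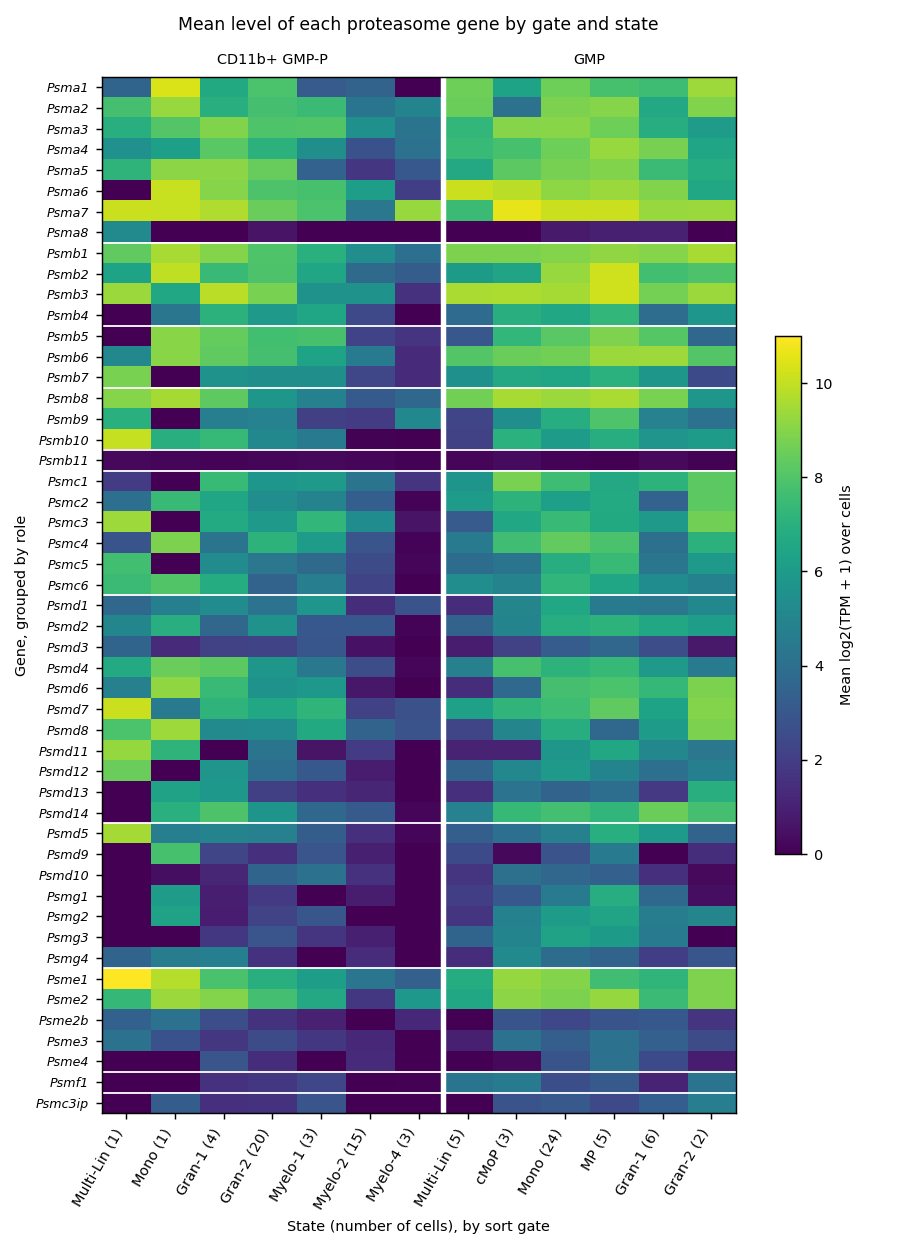
Mean log2(TPM + 1) of each of the 50 matched genes (rows, grouped by role, white lines between roles) in each state (columns, number of cells in brackets), CD11b+ GMP-P left of GMP. Myelo-2 and Myelo-4 columns are dark across most roles, Psmb10 averages 0.06 in Myelo-2 and 0.00 in Myelo-4, and Psmb11 is near 0 in every state.

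Fewer cells with a value and lower values in the cells that had one both entered these differences. In CD11b+ GMP-P cells, 48 of 49 members had a value in a smaller share of cells than in GMP cells, with a median detection difference of -22.8 percentage points (-15.8 for all genes compared). The like count over all genes was not taken, but 6478 of the 7803 genes compared had a lower mean in CD11b+ GMP-P cells, so a drop was not particular to the members. Taking only cells above 0, the median difference of the members was -0.91 and 21 of 49 were lower by 2-fold or more, against a median of -0.24 and 20.8% for all genes. The number of members detected per cell had a lowest, median and highest of 11, 35 and 46 in CD11b+ GMP-P cells, against 18, 45 and 48 in GMP cells. It followed the number of genes detected, with a Pearson r of 0.95 over the 47 CD11b+ GMP-P cells and 0.81 over the 45 GMP cells (Spearman rho 0.93 and 0.62). Both counts come from the same cells and share their depth. In 24 pairs of cells with numbers of genes detected at most 300 apart, the median difference of the members was -0.51 (-0.10 for all genes), 14 of 49 were lower by 2-fold or more (14.7% of all genes) and 2 higher (10.7% of all genes).

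**Figure D3:**
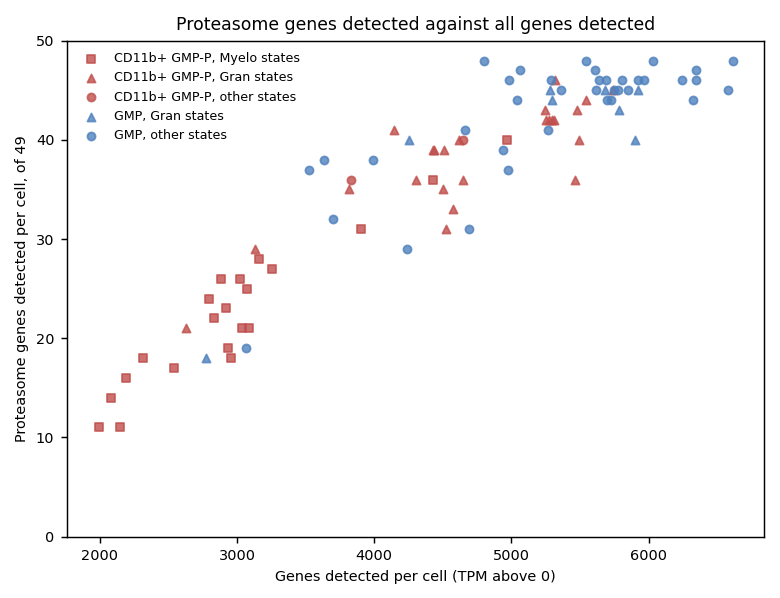
Members above 0 (of 49, vertical axis) against all genes above 0 (horizontal axis) in each of the 92 cells, by gate and state class. Cells of the Myelo states hold the lower left, with 11 to 28 members in Myelo-2 cells, and most GMP cells the upper right.

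The gate difference was smaller when fewer states were compared. The states also differed in genes detected and in their share of granule gene transcript, so these cannot be told apart here, and the cause was not tested. Without the Myelo states, the median difference of the members was -0.77, 16 of 49 were lower by 2-fold or more, and the same held for 17.8% of genes. With only Gran-1 and Gran-2 cells in each gate (24 CD11b+ GMP-P and 8 GMP cells), the median was -0.34, with 12 of 49 lower by 2-fold or more and 6 higher, against 18.8% of genes lower and 10.6% higher. In Gran-1 cells Psmb8 averaged 8.29 ± 1.89 in CD11b+ GMP-P (4 cells) and 8.79 ± 0.76 in GMP (6 cells), a gap smaller than the spread of either. Gran-2 cells had a lowest, median and highest of 0, 83.5 and 342 TPM in CD11b+ GMP-P, and the 2 Gran-2 cells of GMP had 23.7 and 122 TPM. Psmb8 was therefore low in Gran-2 cells of both gates. Averaging TPM before taking the log, which gives weight to the highest cells, left a median of -0.83 for the members and -0.52 for all genes, with 13 of 49 (26.5%) and 30.2% lower by 2-fold or more.

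Summed over the constitutive alpha and beta genes, 20S core transcript had a median of 4534 TPM in CD11b+ GMP-P cells (882 to 8971) and 8429 TPM in GMP cells (4092 to 13200). The 19S genes summed to 2073 TPM in CD11b+ GMP-P cells (0.85 to 4529) and 3512 TPM in GMP cells (75.5 to 5667). The immunoproteasome genes summed to 279 TPM in CD11b+ GMP-P cells (0 to 1718) and 1033 TPM in GMP cells (118 to 2520). In each sum the gates overlapped, with the lower median in CD11b+ GMP-P cells. The share of TPM in the 11 primary and late granule genes had a median of 24.7% in CD11b+ GMP-P cells and 5.05% in GMP cells. With these genes left out and the rest of each cell rescaled to the same total, CD11b+ GMP-P cells had medians of 6987 for the 20S core, 3431 for the 19S regulator and 427 for the immunoproteasome genes, against 8888, 3659 and 1078 in GMP cells. On that scale the 20S and 19S sums overlapped over most of their ranges, and the immunoproteasome sum kept the widest relative gap of the 3.

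**Figure D4:**
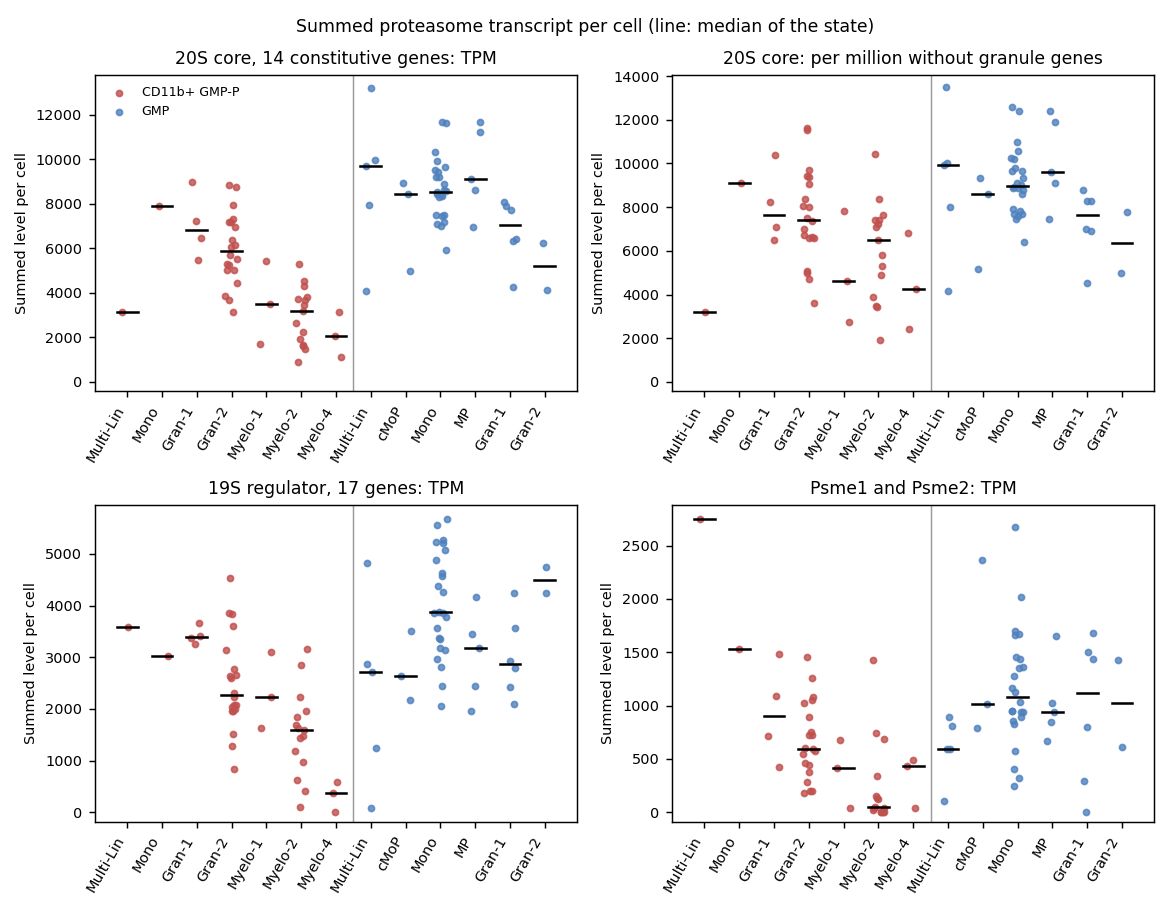
Summed level per cell of the 20S core (14 constitutive genes) in TPM and in TPM rescaled without granule genes, of the 19S regulator (17 genes) and of Psme1 with Psme2 in TPM, by state, with CD11b+ GMP-P left of GMP and a line at each median. Myelo-2 medians are 3184 TPM for the 20S core and 49.1 TPM for Psme1 with Psme2, against 5892 and 596 TPM in Gran-2 cells of the same gate.

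Within CD11b+ GMP-P cells, the question was how the proteasome genes differ between Myelo-2 and Gran-2, the 2 states of that gate with at least 5 cells. Of 49 members, 42 were lower by 2-fold or more in Myelo-2 cells (85.7%, against 51.2% of 7334 genes) and 0 higher (against 2.62%). The median was -2.58, against -1.04 for all genes, and 66.4% of genes detected in 50% or more of either state's cells were lower by that size. By role, the 7 alpha genes had a median of -4.13, the structural beta genes -3.36, the constitutive catalytic genes -3.20 and the immunoproteasome genes -2.99. The 19S ATPase genes (-1.69) and the assembly chaperones (-1.96) differed less. Myelo-2 cells had 1993 to 3257 genes detected (median 2936), against 2629 to 5743 (median 4595) in Gran-2 cells, and the granule gene share of TPM had a median of 53.3% in Myelo-2 cells, against 22.5% in Gran-2 cells. Primary granule genes summed to a median of 10.9 TPM in Myelo-2 cells and 62047 TPM in Gran-2 cells, and late granule genes to 533036 TPM in Myelo-2 cells and 158005 TPM in Gran-2 cells. Only 2 pairs of cells could be matched on genes detected, so no matched value is given, and the part that detection or the granule genes have in this difference was not tested. With TPM averaged before the log, the medians were -1.03 for the members and -1.12 for all genes, so the members lay at the background on that scale.

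Psma5, an alpha subunit, was above 0 in 4 of 15 Myelo-2 cells, with a lowest, median and highest of 0, 0 and 844 TPM. It was above 0 in all 20 Gran-2 cells, at 98.5, 401 and 842 TPM, and the difference of -6.70 was exceeded by 0.232% of the genes compared. It was thus not detected in most Myelo-2 cells, which had fewer genes detected than Gran-2 cells, and 1 Myelo-2 cell had as much as the highest Gran-2 cell. Psmb5 was above 0 in 6 of 15 Myelo-2 cells (0, 0 and 771 TPM), against 19 of 20 Gran-2 cells (0, 261 and 1602 TPM), a difference of -5.44. Psmb6 was above 0 in 10 of 15 Myelo-2 cells (0, 67.1 and 740 TPM), against 19 of 20 Gran-2 cells (0, 430 and 1054 TPM), a difference of -3.20. For both genes the states overlapped, with a lower median in Myelo-2. Among the activators, Psme2 was above 0 in 6 of 15 Myelo-2 cells (0, 0 and 639 TPM), against 18 of 20 Gran-2 cells (0, 383 and 1076 TPM), a difference of -5.93. Psme1, the gene of the other PA28 subunit, had 0, 38.7 and 1422 TPM in Myelo-2 cells, against 0, 220 and 865 TPM in Gran-2 cells (-2.57). Its highest cell was a Myelo-2 cell, while Psme2 peaked in Gran-2 cells.

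Psmb10 was seldom detected in Myelo-2 cells. It was above 0 in 2 of 15, at no more than 0.45 TPM, against 15 of 20 Gran-2 cells with a median of 95.2 TPM, a difference of -5.06. In the 3 Myelo-4 cells it was at 0. The other immunoproteasome genes were detected in more Myelo-2 cells. Psmb8 had 0, 0.39 and 765 TPM in Myelo-2 cells, against 0, 83.5 and 342 TPM in Gran-2 cells (-2.69), so its highest cell was a Myelo-2 cell, and Psmb9 was above 0 in 6 of 15 Myelo-2 cells and 16 of 20 Gran-2 cells (-2.99). Psmd6, a lid subunit of the 19S regulator, was above 0 in 3 of 15 Myelo-2 cells (up to 107 TPM), against 18 of 20 Gran-2 cells (median 60.6, up to 821 TPM), a difference of -4.92. Psmg2 was at 0 in all 15 Myelo-2 cells (a count of 0 leaves room for a share of up to 20%) and above 0 in 11 of 20 Gran-2 cells.

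The genes of the 19S ATPase ring were not alike. Of these, Psmc3 was above 0 in 12 of 15 Myelo-2 cells with a median of 110 TPM, against 19 of 20 Gran-2 cells with a median of 119 TPM (difference -0.55). Psmc4, of the same ring, had 0, 4.35 and 1091 TPM in Myelo-2 cells, against 0, 210 and 943 TPM in Gran-2 cells (-4.20). The states overlapped for both, and their medians lay close for Psmc3 alone of the pair. Psma6 differed least among the alpha genes (-1.79), with medians of 68.1 TPM in Myelo-2 cells and 355 TPM in Gran-2 cells. Psme4 (-0.09), Psmg4 (-0.21) and Psmd13 (-0.91) lay within 2-fold.

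In TPM rescaled without the granule genes, the 20S core had a median of 6510 in Myelo-2 cells and 7424 in Gran-2 cells, and the 19S regulator 3243 in Myelo-2 cells and 2863 in Gran-2 cells. Psme1 with Psme2 had 108 in Myelo-2 cells and 781 in Gran-2 cells, and the immunoproteasome genes 33.7 in Myelo-2 cells and 530 in Gran-2 cells. On this scale the sums of the large core and 19S lists were close, while those of the short immunoproteasome and PA28 lists were not. The 3 Myelo-4 cells had the lowest median 19S sum of the states, with values of 0.85, 371 and 588 TPM. Their constitutive catalytic genes summed to 0.41, 11 and 45.5 TPM and their immunoproteasome genes to between 81.6 and 1136 TPM. In these 3 cells, 88.1 to 99.9% of the transcript for the 6 catalytic subunits was immunoproteasome, against a median of 31.6% (0 to 100) in Gran-2 cells. The Myelo-4 cells had only 2148, 2192 and 2319 genes and 11, 16 and 18 members detected, while every Gran-2 cell had 2629 genes or more. The part that genes not detected have in these shares was not tested.

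Within GMP cells, Gran-1 was set against Mono to compare granulocyte and monocyte state names inside 1 gate. Of 49 members, 24 were lower by 2-fold or more in the 6 Gran-1 cells than in the 24 Mono cells (49%, against 21% of 8601 genes and 23.2% of those detected in 50% or more of either state's cells) and 1 was higher, Psmd5 at 1.13 (against 13.8% of genes). The median was -0.99, against -0.16 for all genes. The 19S ATPase genes had the lowest median of the subunit lists (-2.23), and the constitutive catalytic genes lay near 0 (-0.08). Psmc4, an ATPase, had 0, 23.3 and 306 TPM (lowest, median, highest) in Gran-1 cells, against 37.2, 360 and 1254 TPM in Mono cells, a difference of -4.30. Psmd9, a chaperone of the 19S base, was at 0 in all 6 Gran-1 cells and above 0 in 16 of 24 Mono cells (-2.81). Psmc4 was thus detected in most Gran-1 cells, with a median below the lowest Mono cell, and Psmd9 in none of these 6 cells, of which 1 had only 2775 genes detected. Among core genes, Psmb4 differed most, with 0, 15 and 112 TPM in Gran-1 cells, against 0, 190 and 1541 TPM in Mono cells (-2.69). Psma3 had 0, 318 and 636 TPM in Gran-1 cells, against 183, 495 and 1580 TPM in Mono cells (-2.17), while Psmb1 (0.02) and Psma4 (0.17) had like means. Psmb5 spanned 168 to 394 TPM in Gran-1 cells, inside the 2.33 to 2105 TPM of Mono cells (-0.08). Psmb9 (-1.98), Psme1 (-1.74) and Psme2 (-1.29) were lower in Gran-1 cells, and Psmb8 (-0.56) and Psmb10 (-0.33) lay within 2-fold. Psmd14 (0.80) and Psmb6 (0.72) were the highest 19S and catalytic members. Gran-1 cell 25, with 18 members and 2775 genes detected, weighs on these counts: without it, 15 of 49 were lower by 2-fold or more and 2 higher, against 15.9% of genes lower and 20.3% higher. The median was then -0.56 (0.03 for all genes). With cell 25 kept and TPM averaged before the log, 14 of 49 were lower by 2-fold or more (28.6%, against 33.1% of genes).

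In the 5 Multi-Lin cells of the GMP gate, the immunoproteasome genes were all lower than in the other GMP cells, but by unlike amounts. Psmb8 had 118, 153, 370, 1209 and 1235 TPM in these cells, against a lowest, median and highest of 23.7, 636 and 2446 TPM in the other 40 GMP cells, a difference of -0.49. Psmb9 was at 0 in 3 of the 5 cells, with 2.19 and 957 TPM in the others, against a median of 192 TPM in the other GMP cells (-4.15). Psmb10 was likewise at 0 in 3 of the 5 cells, with 3.85 and 339 TPM in the others, against a median of 97.6 TPM in the other GMP cells (-4.05). Psmb8 was thus detected in every Multi-Lin cell, and Psmb9 and Psmb10 in 2 of 5 each. The median difference of all genes compared was -0.78, so Psmb8 was less negative than the typical gene, and Psmb9 and Psmb10 were more negative.

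Psmb5 had 0, 0, 0.95, 19.6 and 759 TPM in the Multi-Lin cells, against 1.66, 363 and 2105 TPM (lowest, median, highest) in the other GMP cells, a difference of -4.97. Psmd6 differed most (-6.02), with 2 of 5 Multi-Lin cells and 40 of 40 other GMP cells above 0. The 5 activator genes were all lower by 2-fold or more, with Psme4 at 0 in all 5 Multi-Lin cells and above 0 in 29 of 40 other GMP cells (-2.66). In all, 37 of 49 members were lower by that size (75.5%, against 42.9% of 8218 genes and 49.9% of those detected in 50% or more of either group's cells) and 2 higher (against 9.33%). The higher pair were Psma6, with 312, 939 and 3241 TPM (lowest, median, highest) in Multi-Lin cells, against 17.4, 595 and 1787 TPM in the other GMP cells (1.07), and Psmf1 (1.58), with 3 of 5 cells above 0, against 21 of 40. The median over the members was -2.07, against -0.78 for all genes. The 20S core sum did not follow the count, with a median of 9712 TPM in Multi-Lin cells (4092 to 13200) and 8417 TPM in the other GMP cells (4140 to 11701). With TPM averaged before the log, 20 of 49 were lower by 2-fold or more (40.8%, against 48.3% of genes). Multi-Lin cells had 3069 to 4688 genes detected (median 3634), against a median of 5660 in the other GMP cells, and the 3 basophil and mast cell genes summed to a median of 2534 TPM in Multi-Lin cells (133 to 5725), against 0 in the other GMP cells (0 to 321). Of the 4 erythroid genes, which reached 1044 TPM in Multi-Lin cells and 90.4 TPM in the other GMP cells, Epor was at 0 in every cell. The part that detection and these markers have in the counts was not tested.

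In the 5 MP cells, members and all genes alike had a positive median difference from the other 40 GMP cells (0.75 and 0.27). Of 49 members, 17 had means higher by 2-fold or more. The same held for 26.4% of 8359 genes and for 32.6% of those detected in 50% or more of either group's cells. Only 1 member was lower by that size (against 9.21% of genes and 7.91% of those so detected). The share of members was not far from the background, and with TPM averaged before the log 3 were higher (14.1% of genes) and 3 lower (29.9% of genes). Psmg1, an alpha ring chaperone, had 17.1, 80.3, 128, 313 and 357 TPM in MP cells, against 0, 31.5 and 342 TPM in the other GMP cells, a difference of 3.06. Psmb9 had 81.8 to 633 TPM in MP cells, against 0, 145 and 957 TPM in the other GMP cells (difference 2.23), and Psmb2 had 879 to 2326 TPM in MP cells, against 0, 614 and 2305 TPM in the other GMP cells (1.86). The MP values lay inside the range of the other GMP cells for Psmb9, and in its upper part or just above for Psmb2. All 5 MP cells had Psmb5, Psmb8, Psmb9 and Psmb10 above 0. Psmb8 lay at 542 to 916 TPM and Psma4 at 451 to 758 TPM in MP cells, against 23.7 to 2446 TPM and 11.7 to 2640 TPM in the other GMP cells. A range widens with the number of cells and of states, so 5 MP cells and 40 other cells cannot be compared for spread in this way. Psmd8 was the lower member (-2.43), with medians of 8.41 TPM in MP cells and 112 TPM in the other GMP cells.

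Because TPM is scaled by length, each immunoproteasome subunit can be set against the subunit it replaces within a cell. Psmb8 was higher than Psmb5 in 21 of 47 CD11b+ GMP-P cells (44.7%, exact 95% interval 30.2 to 59.9) and in 33 of 45 GMP cells (73.3%, 58.1 to 85.4). Psmb5 was the higher gene in 22 CD11b+ GMP-P cells and 12 GMP cells, and both genes were at 0 in 4 CD11b+ GMP-P cells and 0 GMP cells. The mean of Psmb8 minus Psmb5 on the log2 scale was -0.36 ± 4.10 in CD11b+ GMP-P cells and 1.67 ± 2.89 in GMP cells. In Gran-2 cells of CD11b+ GMP-P it was -1.84 ± 3.43 with Psmb8 higher in 7 of 20 cells, and in GMP Mono cells 1.17 ± 2.24 with Psmb8 higher in 18 of 24. The SD between cells exceeded the mean in each of these groups. The sign varied by state: Myelo-2 cells averaged 0.91 ± 4.64, but -1.31 in the 3 with both genes above 0, and the 2 Gran-2 cells of GMP averaged 2.08. Over cells in which both genes were above 0, the means were -0.70 in 27 CD11b+ GMP-P cells and 1.34 in 43 GMP cells.

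**Figure D5:**
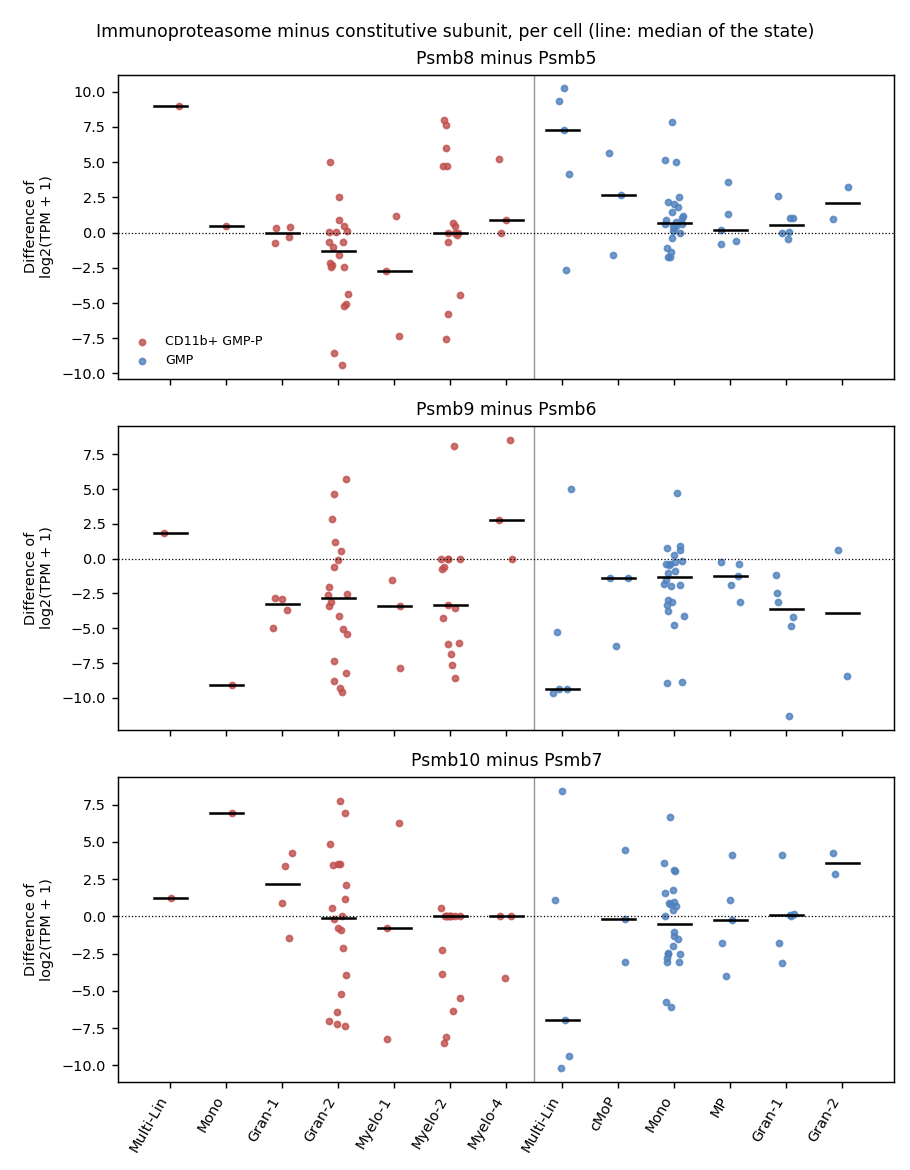
Per-cell difference of log2(TPM + 1) between each immunoproteasome subunit and its constitutive counterpart, by state, CD11b+ GMP-P left of GMP, with a line at each median. Points above 0 have more of the immunoproteasome subunit, which for Psmb8 against Psmb5 holds in 21 of 47 CD11b+ GMP-P cells and 33 of 45 GMP cells.

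For the other pairs the gates lay closer. Psmb9 was higher than Psmb6 in 9 of 47 CD11b+ GMP-P cells and 7 of 45 GMP cells, with mean differences of -2.55 ± 4.43 in CD11b+ GMP-P cells and -2.73 ± 3.64 in GMP cells. Psmb10 was higher than Psmb7 in 16 of 47 CD11b+ GMP-P cells and 21 of 45 GMP cells, with mean differences of -0.70 ± 4.25 in CD11b+ GMP-P cells and -0.46 ± 3.80 in GMP cells. Psmb7 was the higher gene in 20 CD11b+ GMP-P cells and 22 GMP cells, and both genes were at 0 in 11 CD11b+ GMP-P cells and 2 GMP cells. For Psmb10 and Psmb7 the order of the gates was not stable, since the mean was 0.48 in the 21 CD11b+ GMP-P cells and -0.34 in the 37 GMP cells with both genes above 0. The ratio of their summed TPM was 1.09 in CD11b+ GMP-P cells and 0.601 in GMP cells. Psmb6 exceeded Psmb9 in most cells of both gates. Across the 6 catalytic genes, the immunoproteasome share of TPM had a median of 35.9% in CD11b+ GMP-P cells (0 to 100) and 47.3% in GMP cells (5.34 to 97.2).

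Genes that act with the proteasome were read from 6 lists, against the 39% of all genes compared that were lower by 2-fold or more between the gates. Of 7 partner and maturation genes assessed in the gate comparison, 5 were lower by 2-fold or more in CD11b+ GMP-P cells (median -1.55). Pomp, the maturation factor of the core, averaged 5.10 log2 units in CD11b+ GMP-P cells and 7.65 in GMP cells (-2.54), and 1.69 in Myelo-2 cells against 7.07 in Gran-2 cells (-5.38). The ubiquitin receptor Adrm1 differed by -2.54, and the deubiquitinases Usp14 and Uchl5 by -1.96 and -1.55. The small lid subunit gene Shfm1, which the symbol rule does not reach, averaged 10.30 in CD11b+ GMP-P cells and 10.27 in GMP cells (0.03). Shfm1 thus had like levels in the gates where the 34 core and 19S members that passed were lower by 2-fold or more.

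For NRF1 and NRF2 control, 2 of 5 genes assessed were lower by 2-fold or more, Nfe2l2 (-2.53) and Nfe2l1 (-1.14). Of 6 ubiquitin genes and activating enzymes, 3 were lower (median -1.06), while Ubb averaged 12.63 in CD11b+ GMP-P cells and 12.67 in GMP cells. Of 8 shuttle and extraction genes, 3 were lower, with the unfoldase Vcp (-3.07) and its cofactor Ufd1l (-3.06) the extremes. Antigen processing had 8 of 9 genes lower (median -1.71), led by the chaperone Calr (-3.43) and the class I heavy chain H2-K1 (-3.10), and Tap1, the peptide transporter subunit, was within 2-fold (-0.11). Of 8 interferon control genes, 3 were lower, among them Irf8 (-3.39) and Ifngr1 (-2.21), while Irf1 (-0.70) was within 2-fold. For the NRF1 and NRF2, shuttle and extraction, and interferon lists, the shares lower were close to the 39% of all genes compared. Of the genes assessed in the 6 lists, 0 had means higher by 2-fold or more in CD11b+ GMP-P cells, where only 2.72% of all genes compared did.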

How the data were processed

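The deposited table holds log2(TPM + 1) for each of 92 cells, made by the authors with Bowtie2, RSEM and the mm9 build, per the submitters' processing notes, with versions and annotation not given in the sources used here. Back on the linear scale the values sum to 1000000 in each cell without the row for Ly6g, which lies outside that total. TPM holds no count of reads, so per-cell depth is unknown, and detection limits precision. Cells were grouped by gate from the labels and by state from the authors' annotation. No cells were removed, no doublet caller was run and no doublet step is stated.

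Members and lists were chosen with earlier results of these data known. A difference is the mean log2(TPM + 1) of one group of cells minus that of another, over genes detected in 25% or more of either group's cells, and a call is a difference of at least 1 (2-fold). No difference between groups was tested, as cells are not replicates. Shares have exact Clopper-Pearson 95% intervals, and a share of 0 a limit of 3 cells, which cover counting error only. Reads of genes with processed copies, such as Psme2 and Psme2b, may be split or shared between rows. Full values were given by rule for the catalytic, immunoproteasome, activator and inhibitor genes and for the extremes of each list, and other genes that are named were chosen after their values were seen. Other pseudocounts (0.1 and 10), filters, scalings, averaging and subsets of cells were tried. The scripts were checked on simulated data, and ran on Python 3.11.15 with numpy 2.4.6, pandas 2.3.3, scipy 1.17.1 and matplotlib 3.10.9.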

Additional observations from a re-analysis of the deposited data

Results flagged for a closer look

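In 24 Dixon outlier tests of a state of 4 to 10 cells and a quantity, 3 cells stood far from the rest of their state, where chance alone gives about 1 in 20. These tests take the cells of a state as a sample and serve only to flag single cells. CD11b+ GMP-P Gran-1 cell 79 had 35 members detected, the lowest of its 4 cells, with 4499 genes detected. GMP Gran-1 cell 25 had 18 members detected, the lowest of its 6 cells, with 2775 genes detected, the fewest of any GMP cell. GMP MP cell 10 had the highest sum of assembly chaperone transcripts of its 5 cells, 1808 TPM.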

How the results depend on the processing

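For CD11b+ GMP-P minus GMP the median of the members (-2.20) was -1.36 with a pseudocount of 10, -0.83 from mean TPM, -0.51 in matched cells, -0.77 without the Myelo states and -0.34 in Gran-1 and Gran-2 cells. The count at least 2-fold lower (46) was 13, 14, 16 and 12 under the last 4 of these, and that higher (0) was 2 in matched and 6 in Gran cells. Direction turned for the constitutive catalytic genes in matched cells (0.52) and in Gran cells (0.53), and for the structural beta genes in Gran cells (0.11). For Myelo-2 minus Gran-2, mean TPM gave a median of -1.03 with 25 lower and 2 higher, against 52.4% of genes lower and 10.9% higher. A pseudocount of 10 gave a median of -1.48, and equal medians of widely detected genes -1.59 with 1 higher (14.3% of genes). For Gran-1 minus Mono, the median was -0.46 from mean TPM, -0.58 in matched cells and -0.56 without cell 25 (chosen after seeing the data). From mean TPM 14 were lower (28.6%, against 33.1% of genes), and without cell 25 the count was 15 (15.9% of genes). The count higher was 0 with a pseudocount of 10 (5.10% of genes) or equal medians (13.8%), 4 in matched cells (21.3%) and 2 without cell 25 (20.3%). In matched cells the structural beta median of Gran-1 minus Mono turned to 0.088. For Multi-Lin, a pseudocount of 10 gave a median of -1.08, and mean TPM a median of -0.73, 20 lower (48.3% of genes) and an alpha median of 0.41. The Multi-Lin count higher was 5 with equal medians (17.6% of genes) and 1 without granule genes (9.07%). For MP, 7 were higher with a pseudocount of 10 (median 0.46, 9.46% of genes higher), and 3 lower with equal medians (10.2% of genes). From mean TPM, 3 were lower and 3 higher (median 0.07), against 29.9% of genes lower and 14.1% higher. The cause of these shifts was not tested. Filters on detection, a pseudocount of 0.1 and leaving out Psmc3ip, Psmb11 and Psme2b (chosen after seeing the data) left the counts over all members within 1.5 times. Of the subunit pairs, Psmb10 minus Psmb7 in CD11b+ GMP-P cells turned from -0.70 to 0.48 in cells with both genes (chosen after seeing the data) and 0.12 from summed TPM, and the other pairs kept their direction, with Psmb8 minus Psmb5 in CD11b+ GMP-P cells between -0.70 and -0.25. Matching Myelo-2 with Gran-2 cells gave too few pairs and no value. No paired analysis was possible because the cell numbers of the gates do not overlap and name no shared animal.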
